A study of Mus musculus with 12 samples.

Results

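The comparison described here set liver progenitor cells transformed by mutant H-Ras against the untransformed cells they are compared with in the series. It rests on 6 of the 12 RNA-seq libraries: the 3 titled WT and the 3 titled WT RasG12V, all of which were kept. The cells are BMEL cells, bipotential mouse embryonic liver progenitors, a line isolated from a CDK8F/F mouse, so both groups carry floxed Cdk8 alleles. Both groups were grown on collagen in RPMI medium with fetal calf serum, insulin, IGFII and EGF and were taken during exponential growth. The untransformed group had no transformation and the other carried H-RasG12V; how it was introduced, and whether a group is 1 clone, is not given in the sources used here. Whether libraries of the same group are separate cultures is not stated. P-values measure the spread between libraries within groups, estimated over all 12 libraries of the series, and this spread may be technical. The question addressed is how transformation by Ras changes the RNA of these cells across all genes.

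Ras proteins are small GTPases that relay signals from growth factor receptors to the RAF, MEK and ERK kinases, to PI3-kinase and to Ral. The G12V change slows GTP hydrolysis and keeps the protein in its active form. Progenitors of the embryonic liver can become hepatocytes or bile duct cells, and they express genes of both lineages together with simple epithelial keratins.

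Each library held between 24823560 and 33285861 gene counts, and levels are given as CPM (counts per 1000000 gene counts) after scaling, always for replicates 1, 2 and 3 in that order, with the untransformed group before RasG12V. In both groups replicate 3 stood apart: chi-square per gene averaged 8.17 between untransformed replicates 1 and 2 but 56 and 56.9 with replicate 3, and 4.61 between RasG12V replicates 1 and 2 but 93.5 and 85.4 with replicate 3. Results on gene groups are therefore given with and without both replicates 3. Of 22 markers of liver progenitors, 21 reached 1 CPM in at least 1 library, and Krt19 stood at 2331, 2302 and 1848 against 1948, 1675 and 2870 CPM, Sox9 at 39.3, 34.9 and 23.8 against 56.3, 55.8 and 90.7 CPM and Hnf4a at 445, 405 and 387 against 287, 283 and 503 CPM. Epcam had 5 counts over the untransformed and 9 over the RasG12V libraries (0.0355, 0.0928 and 0.0298 against 0.0729, 0 and 0.211 CPM), and Alb, which encodes albumin, was low in untransformed cells and nearly without counts in RasG12V (4.12, 3.31 and 1.73 against 0, 0 and 0.0603 CPM). Markers of other cells summed to at most 2.45 CPM for stellate cells and fibroblasts (11 genes, with Col1a2, Col3a1, Lrat and Lum at 0 counts), 0.633 CPM for endothelial cells (9 genes, with Emcn, Kdr and Tek at 0) and 0.663 CPM for erythroid cells (8 genes, 6 of them at 0). The 10 macrophage and leukocyte markers summed to 38.7, 36.2 and 46.0 CPM in untransformed and 33.7, 35.6 and 60.5 CPM in RasG12V libraries, most of it from Cd14, while Adgre1, Cd52 and Tyrobp were at 0. Of 7 mesothelial markers, Krt19 and Msln held nearly all of the 3050 to 4237 CPM, and Wt1 stayed at 0.09 CPM or less. Upk3b, on the same list, fell from 1.95, 1.33 and 6.59 to 0.0729, 0.205 and 0.151 CPM. Muc16 rose but stayed under 1 CPM (0.107, 0 and 0.119 against 0.729, 0.491 and 0.151 CPM).

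Hras, the mouse gene of H-Ras, stood at 57.6, 51.7 and 40.7 CPM in the untransformed libraries and 509.7, 537 and 313 CPM in RasG12V (log2 fold change 3.18, SE 0.19, adjusted p = 4.0e-07). Every RasG12V library lay above every untransformed library, and RasG12V replicate 3 was the lowest of its group. Reads from the introduced H-Ras may be counted in this gene, and counts do not separate the mutant from the mouse allele.

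Among 14283 genes tested, 3340 passed an adjusted p of 0.05, which is 23.4%: 1701 rose (11.9%) and 1639 fell (11.5%). The libraries of both groups did not overlap for 4619 of the 14283 genes (32.3%). The fit that gave the 3340 calls also took in the knockout libraries of the series. With only the 6 libraries compared, 1574 of 13756 genes were called. The median log2 fold change over all genes tested was 0.00, also without both replicates 3. Small changes were the majority in both directions. Of the rises, 593 were under 0.5 on the log2 scale, 441 between 0.5 and 1, 348 between 1 and 2, 215 between 2 and 4, and 104 at 4 or more; the falls numbered 503, 500, 358, 206 and 72 in the same steps. Called changes in abundant genes were mostly small. Of 2530 genes at 100 CPM or more, 374 rose and 235 fell, and 77 of these changed by more than 1. Of 2513 genes under 1 CPM, 327 rose and 153 fell, with 463 past that size. Small changes are hard to call at low counts, and the part of this in the contrast was not tested. Some of the largest sizes belong to genes with at most 3 counts in a group, whose fold is not interpretable. Rising genes took 11.8%, 11.9% and 12.6% of all gene counts in the untransformed libraries and 17.2%, 17.3% and 17.7% in RasG12V; falling genes took 13.1%, 12.7% and 11.9%, and 7.43%, 7.38% and 8.17%. These shares come from the same values as the calls, so they describe the size of the change and do not test it.

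**Figure D1:**
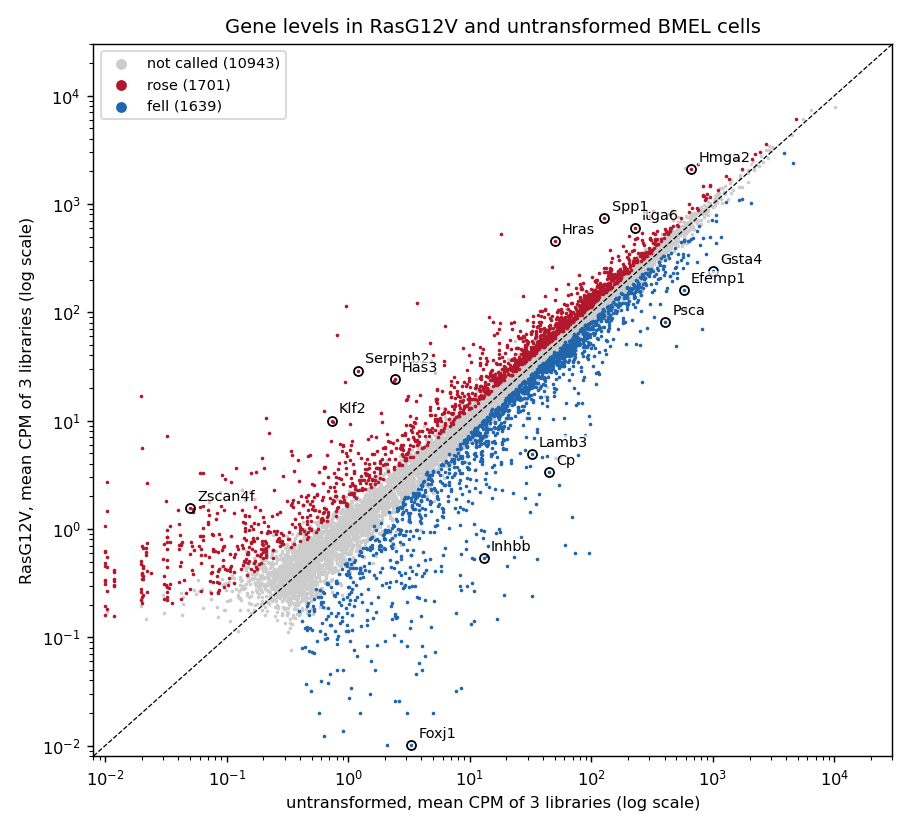
Mean level of each gene in the 3 untransformed (x axis) and 3 RasG12V libraries (y axis), in CPM on log scales; red points rose (1701), blue points fell (1639), grey points were not called (10943), and the dashed line marks equal levels. Circled genes are described in the text; genes without a count in a group are not drawn. Points far from the line lie mostly at low levels.

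Without replicate 3 of both groups, 5799 of 14493 genes were called (40%), of which 2754 rose (19%) and 3045 fell (21%). Of the genes called with all libraries, 1600 rises and 1567 falls were called again in the same direction, 101 and 72 were not called, and 0 turned. Another 1132 rises and 1415 falls were called only without these libraries. The third libraries could be placed against the others because this second set of calls does not use them. Over the 5714 genes called without them and tested in both fits, untransformed replicate 3 lay a median 20% of the way from the mean of untransformed replicates 1 and 2 towards that of RasG12V replicates 1 and 2. RasG12V replicate 3 lay 71.0% of the way. RasG12V replicate 3 was closer to its group for rises, at 80.6%, than for falls, at 62.2%. The difference between both replicates 3 had the same sign as that between the other libraries for 77.6% of these genes, and for 87.3% of the 1554 genes that differed by more than 1 on the log2 scale. Genes chosen for a difference between replicates 1 and 2 tend to show a smaller one in any other library, so these percentages describe position and were not tested.

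**Figure D2:**
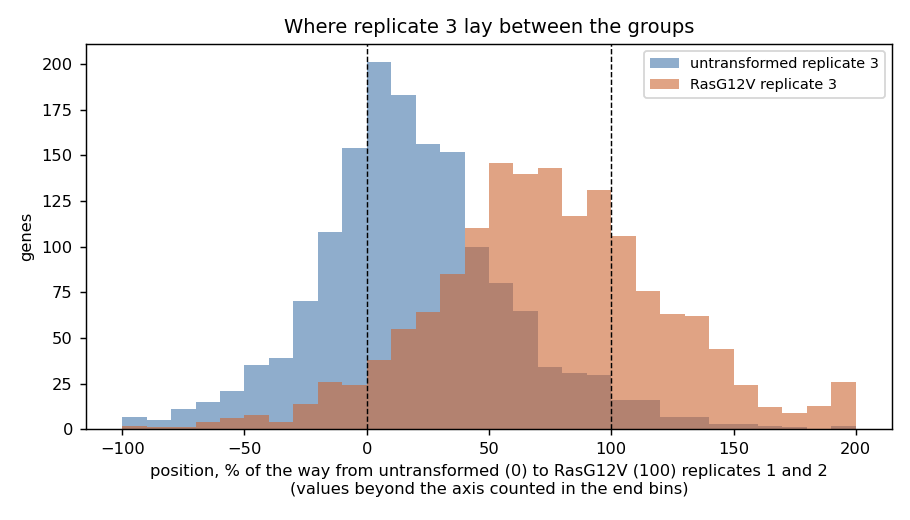
Number of genes (y axis) by the position of replicate 3 between the groups (x axis, in % of the distance from untransformed, 0, to RasG12V, 100, each the mean of replicates 1 and 2), for the 1554 genes called without both replicates 3 with a difference above 1 on the log2 scale. Untransformed replicate 3 (blue) has its median at 16.2% and RasG12V replicate 3 (orange) at 73.4%, and the distributions overlap.

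The genes described first are those with the largest differences in CPM between groups that did not overlap, after genes already described in earlier results were passed over. Hmga2, an architectural chromatin protein of embryonic cells, stood at 546, 548 and 893 CPM in the untransformed libraries and 1767, 1818 and 2761 CPM in RasG12V (log2 fold change 1.68, SE 0.2, adjusted p = 8.3e-05). The thrombin receptor gene F2r stood at 235, 224 and 392 CPM in the untransformed libraries and 869.5, 884 and 794 CPM in RasG12V (log2 fold change 1.58, SE 0.18, adjusted p = 4.6e-05). Lgals1, which encodes the galactose-binding lectin galectin-1, went from 1284, 1357 and 1975 to 2696, 2720 and 2427 CPM (log2 fold change 0.77). In these 3 genes untransformed replicate 3 was the highest of its group, on the side of the RasG12V libraries, without reaching them. Spp1, which encodes the secreted phosphoprotein osteopontin, stood at 80.2, 75.4 and 228 CPM in the untransformed libraries and 386, 392 and 1450 CPM in RasG12V (log2 fold change 2.54, SE 0.54, adjusted p = 0.00443); replicate 3 was far above the others within each group, so its level varied within groups as well as between them. The cytosolic chaperone gene Hsp90ab1 (4664, 4953 and 4815 against 6183, 6081 and 6188 CPM), the beta-actin gene Actb (2373, 2347 and 1885 against 3115, 2787 and 2839 CPM) and the membrane protein gene Emp1 (2861, 2987 and 2424 against 3701, 3872 and 3063 CPM) rose by less than 0.5 on the log2 scale, yet all are abundant (adjusted p = 0.00427, 0.00882 and 0.0252).

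Among the genes not passed over, the largest falls in CPM included keratin, lipoprotein, glutathione and conjugating enzyme genes. Krt8, which was passed over, fell from 1710, 1878 and 1350 to 1159, 1042 and 1037 CPM (log2 fold change -0.61). Krt18, the keratin of simple epithelia, was the most abundant, at 3556, 4276 and 3681 CPM in the untransformed libraries and 3351, 2773 and 2752 CPM in RasG12V (log2 fold change -0.38, SE 0.11, adjusted p = 0.0292). Apob, the structural protein of lipoproteins, stood at 967, 1133 and 1058 CPM in the untransformed libraries and 426, 532 and 352 CPM in RasG12V (log2 fold change -1.27, SE 0.17, adjusted p = 1.6e-04), with RasG12V replicate 3 the lowest of all. The pantetheinase gene Vnn1 stood at 482, 467 and 813 CPM in the untransformed libraries and 87.4, 88.3 and 146 CPM in RasG12V (log2 fold change -2.45, SE 0.23, adjusted p = 1.3e-05). Gsta4, a glutathione transferase for lipid aldehydes, went from 1233, 1196 and 586 to 113, 103 and 503 CPM (log2 fold change -2.07). Gsto1, an omega-class transferase, went from 1138, 1295 and 1077 to 502, 391 and 592 CPM (log2 fold change -1.24). Gclc, the catalytic subunit of glutamate-cysteine ligase, went from 893, 764 and 560.3 to 225, 238 and 419 CPM (log2 fold change -1.33, SE 0.22, adjusted p = 9.5e-04). For Gsta4 and Gclc both replicates 3 lay between the other libraries of both groups. Ugt2b34, a glucuronosyltransferase, stood at 678, 635 and 190.2 CPM in the untransformed libraries and 36.8, 33.4 and 75 CPM in RasG12V (log2 fold change -3.37, SE 0.42, adjusted p = 1.2e-04). The adaptor gene Pea15a, whose product binds ERK, was at 1072, 975 and 599.5 CPM in the untransformed libraries and 314, 301 and 417 CPM in RasG12V (log2 fold change -1.36, SE 0.19, adjusted p = 2.1e-04).

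Some moderate changes were nearly the same in every library, replicate 3 included. Ppp3ca, the catalytic subunit of calcineurin, went from 45.4, 45.5 and 44.8 to 85.4, 86.9 and 96 CPM (log2 fold change 0.98, SE 0.07, adjusted p = 8.3e-07). The focal adhesion gene Parvb went from 126, 128 and 135 to 239, 247 and 219.8 CPM (log2 fold change 0.86). Rab31, a GTPase of vesicle traffic, went from 146, 137 and 143 to 238, 238 and 255 CPM (log2 fold change 0.78). The formin gene Fmnl2, which encodes a nucleator of actin filaments, went from 56.3, 57.8 and 56.5 to 96.2, 99.5 and 109 CPM (log2 fold change 0.84). Nabp1, a single-stranded DNA binding protein, rose from 127, 132 and 121 to 239, 242 and 227 CPM (log2 fold change 0.9, SE 0.08, adjusted p = 4.5e-06). The collagen lysyl hydroxylase gene Plod2 rose from 136, 148 and 149 to 250.1, 244 and 239 CPM (log2 fold change 0.76). Frmd4a (72.2, 70.8 and 63.4 against 122, 122 and 121 CPM) and the retinol dehydrogenase gene Rdh11 (77.4, 81.6 and 83.4 against 139, 139 and 135 CPM) rose alike. Among steady falls, Mapre2, a microtubule end-binding protein, went from 98, 96.7 and 97.5 to 49, 46.4 and 57 CPM (log2 fold change -0.94, SE 0.08, adjusted p = 4.7e-06). Gsr, the glutathione reductase, went from 357, 356 and 344 to 205, 195 and 210.2 CPM (log2 fold change -0.79). Arhgef18 went from 116, 114 and 129 to 68.9, 68.3 and 62.7 CPM (log2 fold change -0.85). Arrb2, the arrestin that desensitises receptors, went from 39.1, 39.4 and 45.2 to 21.4, 21.6 and 21.3 CPM (log2 fold change -0.94). The lipid scramblase gene Ano6 went from 278, 265 and 229.7 to 141, 143 and 149 CPM (log2 fold change -0.84). Masp1, a protease of the lectin pathway of complement (398, 352 and 356 against 215, 219 and 190.1 CPM), Cmtm4 (219, 217 and 230.1 against 134, 145 and 144 CPM) and Chp1 (257, 261 and 236 against 152, 149.5 and 163 CPM) also fell. In each of these 16 genes the groups were separated by more than the range within a group; the genes were chosen for small adjusted p, so that separation is a description.

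**Figure D3:**
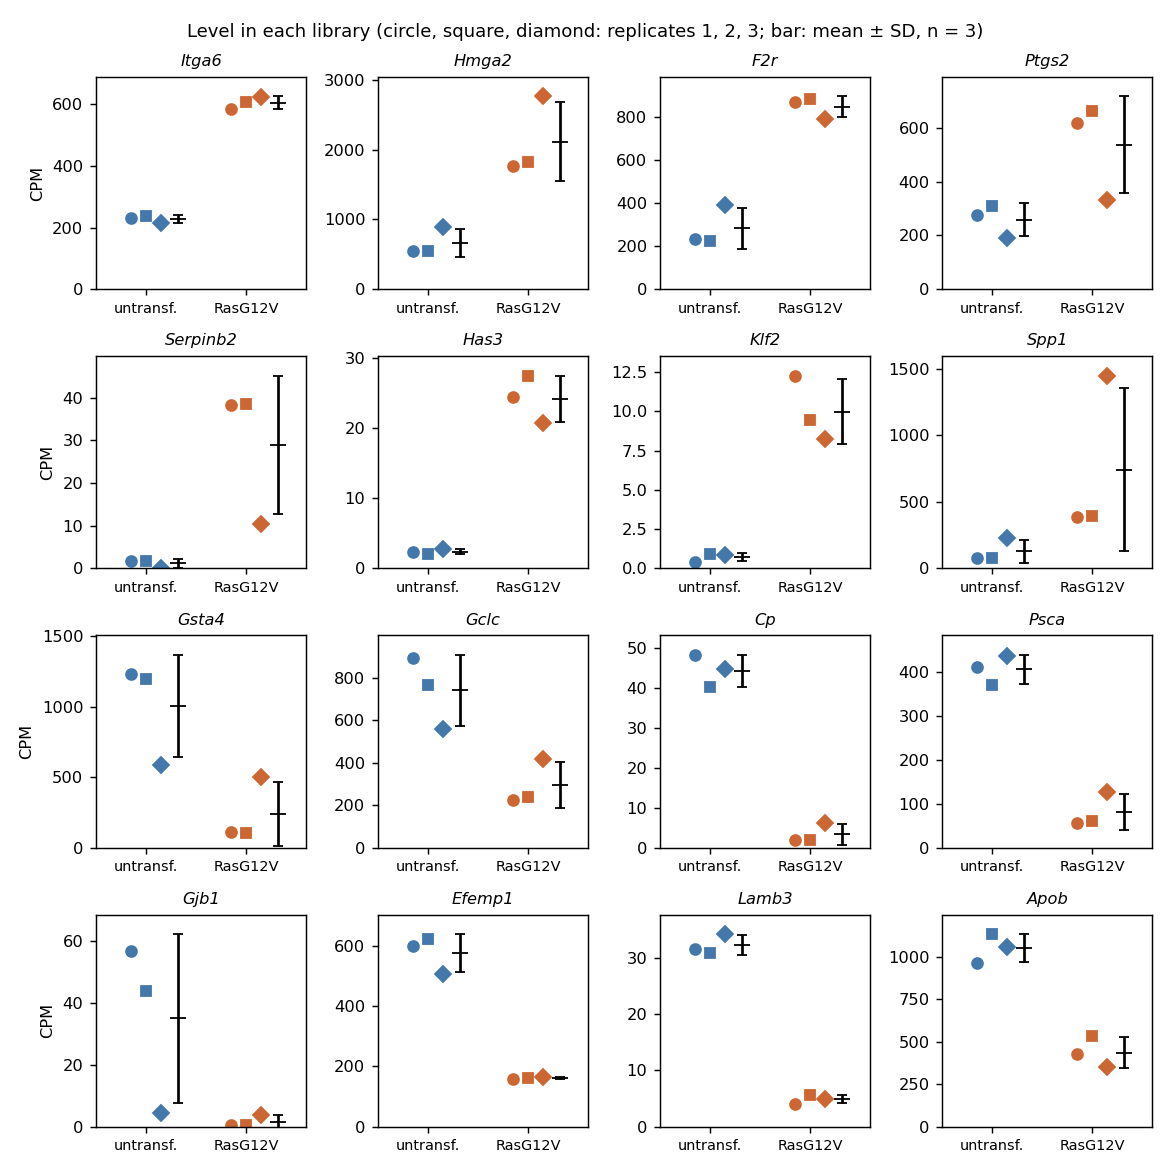
Level of 16 genes in each library (y axes, CPM, from 0; untransformed in blue, RasG12V in orange; circle, square and diamond for replicates 1, 2 and 3; bars, mean ± SD, n = 3). Itga6, Lamb3 and Efemp1 separate the groups with little spread, while in Spp1, Gsta4 and Gjb1 replicate 3 lies far from the others of its group.

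Gene families were then read against the background of 11.9% rises and 11.5% falls among all genes tested. Members with too few counts were not tested, and the lists were chosen with earlier results of these data known, so counts describe the lists. In brackets stand the median log2 fold change of the tested members with all libraries, then the members that rose and fell and the median without both replicates 3, where 19% of all genes rose and 21% fell. The counts also depend on the 6 knockout libraries in the fit. With only the 6 libraries compared, 813 rose and 761 fell of 13756, and the number called changed by over 1.5 times in 43 of 60 lists. The smaller fit differs in the genes kept, the scaling and the estimate of the spread, and these were not separated. Of 83 tested enzymes of drug and xenobiotic metabolism (cytochromes P450, conjugating and other detoxifying enzymes), 38 fell and 5 rose (median -0.41; without both replicates 3, 6 and 58 of 91, median -1.09). Ces2g, a carboxylesterase, stood at 6.04, 6.03 and 5.96 CPM in the untransformed libraries and 0.656, 0.736 and 0.332 CPM in RasG12V (log2 fold change -3.41, SE 0.25, adjusted p = 1.6e-06). Adh7, an alcohol dehydrogenase, was at 4.83, 4.42 and 4.89 CPM in the untransformed libraries and 0.875, 0.777 and 1.15 CPM in RasG12V (log2 fold change -2.32, SE 0.22, adjusted p = 1.3e-05). The aldo-keto reductases went both ways. Akr1c14 fell from 18.7, 19.9 and 13.4 to 0.875, 0.90 and 1.21 CPM (log2 fold change -4.11, SE 0.31, adjusted p = 2.3e-06). Akr1c18, which inactivates progesterone, rose from 0.071, 0.0619 and 0.0596 to 2.01, 1.84 and 5.94 CPM (log2 fold change 5.6, SE 0.58, adjusted p = 2.8e-05). Among NRF2 and glutathione genes, 4 of 37 rose and 8 fell (median -0.03; without both replicates 3, 7 and 14 of 37, median -0.12). The malic enzyme gene Me1 fell from 412, 418 and 383 to 228, 216 and 258 CPM (log2 fold change -0.79). The peroxidase gene Gpx8 rose from 5.75, 5.57 and 9.57 to 26.7, 26.3 and 16 CPM (log2 fold change 1.72). ABC transporters fell in 9 of 29 and rose in 3 (median -0.19; without both replicates 3, 4 and 14 of 30, median -0.26). Abcc5 fell from 510.1, 484 and 405 to 234, 257 and 199.9 CPM (log2 fold change -1.02). The multidrug transporter gene Abcb1b rose from 197, 216 and 304 to 439, 463 and 565 CPM (log2 fold change 1.03).

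Plasma protein genes, lipid genes and serpins had more falls than rises. Among complement, coagulation and plasma protein genes, 2 of 28 rose and 11 fell (median -0.7; without both replicates 3, 2 and 20 of 29, median -1.17). The complement gene C3 went from 4.37, 3.06 and 4.35 to 0.109, 0 and 0.362 CPM (log2 fold change -4.48, SE 0.54, adjusted p = 8.3e-05). Ambp, the precursor of alpha-1-microglobulin, went from 3.59, 2.66 and 0.835 to 0.109, 0.0818 and 0.121 CPM (log2 fold change -4.42). Procr, the endothelial protein C receptor, was an exception and rose from 5.57, 5.35 and 5.07 to 16.8, 17.2 and 13.2 CPM (log2 fold change 1.56, SE 0.12, adjusted p = 1.9e-06). In the group of fatty acid oxidation, triglyceride and lipoprotein genes 6 of 54 rose and 16 fell (median -0.17; without both replicates 3, 10 and 27 of 54, median -0.29). Lpin3, a phosphatidate phosphatase, fell from 4.19, 4.18 and 3.25 to 0.948, 0.859 and 1.78 CPM (log2 fold change -1.67). Hilpda, an inhibitor of the lipase ATGL, rose from 21.3, 23 and 22.7 to 76.6, 74.1 and 58.8 CPM (log2 fold change 1.64). For iron handling, 2 of 22 rose and 4 fell (median -0.11; without both replicates 3, 2 and 10 of 22, median -0.17). Cp, which encodes the ferroxidase ceruloplasmin, dropped from 48.3, 40.2 and 44.7 to 1.82, 1.84 and 6.3 CPM (log2 fold change -3.71, SE 0.39, adjusted p = 2.8e-05). The STEAP family gene Steap1 dropped from 137, 135 and 129 to 89.3, 84.5 and 79.3 CPM (log2 fold change -0.66). Serpins, a family of protease inhibitors and relatives, fell in 7 of 14 and rose in 2 (median -0.61; without both replicates 3, 3 and 8 of 14, median -0.46). Serpinb9, an inhibitor of granzyme B, went from 27.3, 28.5 and 33.2 to 11, 11.4 and 9.28 CPM (log2 fold change -1.49). Serpinb1a, an inhibitor of neutrophil proteases, went from 20, 17.4 and 0.865 to 0.437, 0.45 and 1.57 CPM (log2 fold change -3.9). Serpinb2, the plasminogen activator inhibitor type 2, went the other way, from 1.7, 1.86 and 0.0596 to 38.2, 38.5 and 10.3 CPM (log2 fold change 4.6, SE 0.63, adjusted p = 2.1e-04). Serpinb1a and Serpinb2 were both lower in untransformed replicate 3 than in the other untransformed libraries, and for Serpinb1a this library lay within the RasG12V range.

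Epithelial genes of other organs were present in untransformed cells and fell in part. Of 28 tested genes of gut and stomach mucosa, 14 fell and 2 rose (median -1.15; without both replicates 3, 2 and 23 of 32, median -1.76). The cell surface antigen gene Psca went from 412, 371 and 436 to 56.3, 60.3 and 128 CPM (log2 fold change -2.32, SE 0.25, adjusted p = 3.8e-05). Mal2, which works in apical transport, went from 12.6, 13.1 and 12.1 to 3.9, 4.74 and 5.67 CPM (log2 fold change -1.4). The serine protease gene Tmprss2 went from 16.1, 14.5 and 15 to 0.51, 0.941 and 4.31 CPM (log2 fold change -2.93). The gastric mucosal gene Gkn1 stood at 16.1, 15.7 and 0.656 CPM in the untransformed libraries and 0.0365, 0.0818 and 0.301 CPM in RasG12V (log2 fold change -6.13, SE 1.04, adjusted p = 0.00106); untransformed replicate 3 was far below replicates 1 and 2, near the RasG12V level. In squamous and urothelial genes 2 of 15 rose and 5 fell (median -0.04; without both replicates 3, 3 and 8 of 19, median -0.01). Ppl, which encodes the desmosome and cornified envelope protein periplakin, fell from 209.9, 196 and 173 to 38.5, 43 and 72.4 CPM (log2 fold change -1.91, SE 0.19, adjusted p = 2.2e-05). Upk3b, a uroplakin, fell from 1.95, 1.33 and 6.59 to 0.0729, 0.205 and 0.151 CPM (log2 fold change -4.51). Of 13 keratins 5 fell and 1 rose (median 0.00; without both replicates 3, 1 and 7 of 15, median -0.02). Krt80 fell from 22.3, 20.3 and 21.7 to 11.5, 9.82 and 6.06 CPM (log2 fold change -1.24, SE 0.18, adjusted p = 3.1e-04). Krt7, of ductal epithelia, fell from 526, 528 and 464 to 215, 196 and 281 CPM (log2 fold change -1.13). Krt39 rose but stayed under 1 CPM in all libraries (0.213, 0.217 and 0.149 against 0.62, 0.409 and 0.935 CPM). S100 proteins and annexins, which bind calcium, fell in 7 of 24 and rose in 1 (median -0.23; without both replicates 3, 2 and 13 of 25, median -0.23). Anxa8 went from 361, 361 and 384 to 97.6, 89.5 and 170 CPM (log2 fold change -1.63, SE 0.19, adjusted p = 7.7e-05). S100a14 went from 3.66, 4.18 and 2.92 to 0.875, 0.573 and 1.51 CPM (log2 fold change -1.83).

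Genes of cell contacts went in both directions. Of 10 claudins and connexins, which form tight and gap junctions, 6 fell and 0 rose by edgeR (median -0.48; without both replicates 3, 2 and 7 of 10, median -0.72). At an unadjusted p under 0.05, 1 was higher, and DESeq2 and limma-voom also called 0 rises and 6 falls. Gjb1, the connexin of hepatocytes, was at 56.9, 43.8 and 4.56 CPM in the untransformed libraries and 0.547, 0.613 and 3.98 CPM in RasG12V (log2 fold change -4.29, SE 0.86, adjusted p = 0.0031), with untransformed replicate 3 close to RasG12V replicate 3. Cadherins and protocadherins rose in 15 of 41 and fell in 9 (median 0.42; without both replicates 3, 17 and 7 of 40, median 0.46). Pcdh9 rose from 1.28, 0.742 and 0.805 to 14.2, 13.9 and 10.3 CPM (log2 fold change 3.77, SE 0.24, adjusted p = 5.2e-07). Pcdh7 rose from 85.3, 89.1 and 79.7 to 168, 182 and 208 CPM (log2 fold change 1.14). Pcdh10 fell from 5.57, 5.38 and 4.68 to 0.51, 0.532 and 0.181 CPM (log2 fold change -3.71). The desmosomal cadherin gene Dsg2 fell from 28.3, 24.4 and 12.3 to 4.05, 4.46 and 3.74 CPM (log2 fold change -2.41). The E-cadherin gene Cdh1 fell from 574, 543 and 506 to 217, 217 and 472 CPM (log2 fold change -0.84, SE 0.24, adjusted p = 0.0253). Neighbouring protocadherin beta genes, Pcdhb14 to Pcdhb20, also rose, and these 7 are described with the chromosome runs below. Integrins, the receptors for matrix, had 6 rises and 5 falls among 16 (median 0.05; without both replicates 3, 6 and 7 of 16, median 0.16). Among the alpha subunits, the laminin receptor gene Itga6 went from 231, 238 and 214 to 585, 608 and 625 CPM (log2 fold change 1.41, SE 0.07, adjusted p = 1.3e-07). Itga3, for laminin as well, went from 832, 801 and 836 to 1483, 1608 and 1319 CPM (log2 fold change 0.84). The collagen receptor gene Itga2 went from 209, 204 and 200.2 to 476, 516 and 520.2 CPM (log2 fold change 1.3, SE 0.08, adjusted p = 5.8e-07). The fibronectin receptor gene Itga5 went from 12.6, 11.9 and 11.9 to 19.5, 20.8 and 22.9 CPM (log2 fold change 0.8). All 4 kept replicate 3 with its group. Among tetraspanins, 5 of 23 rose and 3 fell (median 0.02; without both replicates 3, 6 and 8 of 23, median -0.09). Tspan15, a partner of the protease ADAM10, fell from 277, 262 and 216 to 59.1, 65.3 and 78.9 CPM (log2 fold change -1.89, SE 0.12, adjusted p = 6.7e-07). Cd9, an integrin partner, rose from 135, 146 and 154 to 230.3, 229 and 288 CPM (log2 fold change 0.79).

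In the basement membrane, 9 of 21 genes fell and 2 rose (median -0.4; without both replicates 3, 2 and 9 of 21, median -0.57). The laminin chains went in opposite directions. Lamb3, of laminin-332, fell from 31.6, 30.8 and 34.2 to 4.12, 5.56 and 4.97 CPM (log2 fold change -2.72, SE 0.12, adjusted p = 5.6e-08). Lamb2 went from 229, 199 and 220.3 to 71.3, 78.5 and 104 CPM (log2 fold change -1.35). Lamb1 rose from 162, 167 and 214 to 400.4, 434 and 398 CPM (log2 fold change 1.18, SE 0.12, adjusted p = 1.8e-05). Efemp1, the matrix protein fibulin-3, fell from 601, 623 and 505 to 158, 160.1 and 166 CPM (log2 fold change -1.84, SE 0.09, adjusted p = 1.0e-07). Of the collagens, 3 of 15 rose and 4 fell (median -0.04; without both replicates 3, 3 and 7 of 15, median -0.34). Col16a1 fell from 3.62, 3.34 and 2.98 to 0.437, 0.327 and 0.452 CPM (log2 fold change -3.01). Col4a1, of basement membranes, rose by little from 159, 147 and 148 to 193, 212 and 195 CPM (log2 fold change 0.4). Among proteoglycans, matricellular and elastic fibre genes, 7 of 25 rose and 5 fell (median 0.19; without both replicates 3, 12 and 5 of 25, median 0.19). Has3, a hyaluronan synthase, rose from 2.38, 2.04 and 2.83 to 24.4, 27.4 and 20.8 CPM (log2 fold change 3.32, SE 0.15, adjusted p = 5.6e-08). Tnc, which encodes tenascin-C, rose from 0.284, 0.217 and 0.0895 to 5.94, 6.34 and 1.33 CPM (log2 fold change 4.52), least in RasG12V replicate 3. Sdc1, the epithelial syndecan, fell from 538, 532 and 384 to 251, 241 and 279 CPM (log2 fold change -0.92). Sdc3 rose from 1.03, 0.928 and 0.895 to 4.01, 3.31 and 2.35 CPM (log2 fold change 1.76). ADAM and ADAMTS proteases, which shed membrane proteins or cleave matrix, rose in 9 of 23 and fell in 7 (median 0.31; without both replicates 3, 10 and 7 of 23, median 0.5). Adam9 rose from 339.5, 326 and 333 to 470.1, 479.7 and 483 CPM (log2 fold change 0.52, SE 0.06, adjusted p = 9.4e-05). Adamts15, an aggrecanase, fell from 77.4, 69.7 and 15.6 to 2.62, 2.41 and 2.65 CPM (log2 fold change -4.4). Adam19 had 1 count over the untransformed group and stood at 1.35, 1.06 and 0.784 CPM in RasG12V. Enzymes that build sugar chains, the glycosyltransferases and sulfotransferases, rose in 18 of 70 and fell in 12 (median -0.02; without both replicates 3, 21 and 23 of 71, median -0.07). Csgalnact1, which starts chondroitin chains, rose from 6.25, 6.5 and 5.52 to 29, 26.8 and 42.1 CPM (log2 fold change 2.42, SE 0.18, adjusted p = 1.6e-06). Ndst3, which modifies heparan sulfate, rose from 1.03, 1.08 and 1.07 to 4.67, 6.87 and 6.24 CPM (log2 fold change 2.47). The sialyltransferase gene St3gal6 rose from 31.2, 32.1 and 35.3 to 70.7, 68.3 and 85.2 CPM (log2 fold change 1.19).

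Secreted ligands changed in both directions, with 11 rises and 13 falls among 40 growth factors and cytokines (median -0.08; without both replicates 3, 12 and 14 of 40, median -0.18). Pgf, a VEGF family ligand, rose from 2.2, 2.44 and 4.32 to 15.5, 16.6 and 14.9 CPM (log2 fold change 2.38, SE 0.21, adjusted p = 7.8e-06). Angptl4, an inhibitor of lipoprotein lipase, rose from 20.9, 22.1 and 9.72 to 91.8, 86.2 and 63.5 CPM (log2 fold change 2.2). Pdgfb fell from 92.8, 97.9 and 93.3 to 43.8, 43.3 and 34.2 CPM (log2 fold change -1.23). Among BMP, GDF and activin genes, 4 of 24 rose and 5 fell (median -0.19; without both replicates 3, 5 and 9 of 24, median -0.13). Inhbb, the activin beta-B subunit, fell from 12.7, 13.5 and 12.8 to 0.656, 0.573 and 0.392 CPM (log2 fold change -4.6, SE 0.23, adjusted p = 1.3e-07). The antagonist gene Fst, which encodes follistatin, rose from 2.45, 2.6 and 3.46 to 5.69, 6.01 and 4.37 CPM (log2 fold change 0.91). Of 9 tested Hedgehog genes, 1 rose and 1 fell (median 0.2; without both replicates 3, 4 and 1 of 9, median 0.21). The ligand gene Dhh rose from 7.56, 6.56 and 16 to 15.9, 18.7 and 26.7 CPM (log2 fold change 1.02), and untransformed replicate 3 reached the RasG12V range. The co-receptor gene Cdon fell from 24.1, 22.7 and 27.8 to 11.1, 13.3 and 11.6 CPM (log2 fold change -1.05). Guidance ligands and receptors, known from axon growth, rose in 12 of 42 and fell in 9 (median -0.14; without both replicates 3, 13 and 14 of 42, median 0.01). Of the semaphorins, Sema6d rose from 10.8, 8.29 and 10.6 to 36.1, 37 and 47.7 CPM (log2 fold change 2.03, SE 0.15, adjusted p = 1.5e-06). Sema3a rose from 65.6, 69.8 and 70.1 to 150.4, 164 and 126 CPM (log2 fold change 1.1). Sema7a rose from 0.604, 0.804 and 0.596 to 3.54, 3.6 and 7.2 CPM (log2 fold change 2.84).

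Receptor tyrosine kinases fell in 10 of 30 and rose in 5 (median -0.33; without both replicates 3, 6 and 12 of 30, median -0.23). Fgfr2 fell from 5.01, 3.5 and 2.45 to 0.255, 0.205 and 0.241 CPM (log2 fold change -3.93, SE 0.36, adjusted p = 8.7e-06). Fgfr3 fell from 11.5, 9.99 and 4.09 to 0.62, 0.90 and 0.241 CPM (log2 fold change -3.9). Flt4, the receptor of VEGF-C, rose from 10.2, 9.96 and 10.6 to 33.4, 33.3 and 36.9 CPM (log2 fold change 1.75, SE 0.1, adjusted p = 2.7e-07). Epha5, an ephrin receptor, rose from 0.142, 0.124 and 0 to 2.19, 2.29 and 2.05 CPM (log2 fold change 4.6). Of 50 G protein-coupled receptors tested, 10 rose and 11 fell (median -0.07; without both replicates 3, 12 and 19 of 51, median -0.01). Lgr6, a receptor for R-spondins, rose from 3.48, 3.71 and 7.01 to 47.9, 47.8 and 60.4 CPM (log2 fold change 3.45, SE 0.23, adjusted p = 8.2e-07). F2rl1, a protease-activated receptor related to F2r, fell from 10.3, 11.2 and 6.86 to 3.13, 2.62 and 3.17 CPM (log2 fold change -1.66). In the group of cytokine receptors, JAK, STAT and SOCS genes, 7 of 38 rose and 8 fell (median 0.05; without both replicates 3, 8 and 11 of 38, median -0.05). The growth hormone receptor gene Ghr rose from 56.7, 60 and 76.5 to 143, 150.2 and 139 CPM (log2 fold change 1.16, SE 0.1, adjusted p = 4.8e-06). Il4ra rose from 39.4, 34.5 and 41.6 to 55.9, 58.6 and 70.8 CPM (log2 fold change 0.68). The TNF superfamily fell in 8 of 23 and rose in 3 (median -0.17; without both replicates 3, 4 and 10 of 23, median -0.21). The death receptor gene Fas fell from 10, 9.81 and 11.7 to 5.69, 6.09 and 6.9 CPM (log2 fold change -0.75). The neighbouring decoy receptor genes Tnfrsf22 and Tnfrsf23 rose, Tnfrsf23 from 121, 101 and 109 to 166, 182 and 254 CPM (log2 fold change 0.86). Leukocyte receptor families, most of whose 177 annotated genes had too few counts for a test, had 10 rises and 1 fall among 37 tested (median 0.17; without both replicates 3, 14 and 11 of 39, median 0.09). Klra4, a Ly49 receptor of natural killer cells, rose from 32.1, 32.1 and 35.6 to 92.4, 91.9 and 95.2 CPM (log2 fold change 1.49, SE 0.07, adjusted p = 1.0e-07). The lectin gene Siglecg fell from 9.27, 9.56 and 14.4 to 2.84, 2.9 and 1.39 CPM (log2 fold change -2.23). Ptprc, the pan-leukocyte gene, stood at 0.604, 0.371 and 0.209 against 0.292, 0.286 and 0.301 CPM, and the part of leukocyte RNA in the Klra4 result was not tested.

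Among exchange factors and GTPase activators of Ras and Rap, 5 of 24 rose and 2 fell (median 0.22; without both replicates 3, 10 and 2 of 24, median 0.18). The Ras GTPase activators Rasa3 and Rasa1, which switch Ras off, rose, Rasa3 from 54.1, 55.4 and 58.2 to 105, 104 and 88.7 CPM (log2 fold change 0.83, SE 0.08, adjusted p = 9.7e-06). Rasa1 rose from 63.1, 66.2 and 70.7 to 93, 91 and 95.6 CPM (log2 fold change 0.48, SE 0.07, adjusted p = 2.2e-04). Rap1gap2, which acts on Rap1, fell from 18.9, 18.9 and 14.6 to 9.11, 10.7 and 6.66 CPM (log2 fold change -0.99). Dock8, an exchange factor for CDC42, rose (log2 fold change 2.16, SE 0.13, adjusted p = 5.1e-07). Cdc42ep1, an effector of CDC42, fell from 127, 117 and 154 to 56.6, 53.3 and 58 CPM (log2 fold change -1.25). Actin cytoskeleton genes and SRF targets had 10 rises and 6 falls in 55 (median 0.09; without both replicates 3, 22 and 17 of 55, median 0.15). The LIM protein genes Csrp2 and Csrp1 fell, Csrp2 from 82.8, 99 and 129 to 32.2, 30.6 and 34 CPM (log2 fold change -1.68). Of the tyrosine phosphatases, 4 of 28 rose and 2 fell (median 0.01; without both replicates 3, 10 and 6 of 28, median -0.03). Among death regulators, 7 of 39 rose and 6 fell (median 0.03; without both replicates 3, 11 and 10 of 39, median -0.03). The necroptosis effector gene Mlkl rose from 0.639, 0.619 and 1.1 to 2.48, 2.9 and 2.53 CPM (log2 fold change 1.73). Bnip3, a mitophagy receptor, rose from 4.15, 4.79 and 7.19 to 18, 14.2 and 24.7 CPM (log2 fold change 1.82).

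Among transcription factors, AP-1 and small Maf genes rose in 5 of 16 and fell in 2 (median 0.1; without both replicates 3, 6 and 3 of 16, median 0.07). The FOS family genes Fosl2 and Fosl1 rose, Fosl2 from 83, 77.2 and 71.2 to 141, 144 and 98 CPM (log2 fold change 0.73, SE 0.13, adjusted p = 0.00119). Fosl1 rose from 90.2, 95.6 and 79.4 to 144, 124 and 112 CPM (log2 fold change 0.52, SE 0.1, adjusted p = 0.00288). Maf, the large Maf protein, fell from 9.05, 8.1 and 6.74 to 1.02, 0.941 and 2.32 CPM (log2 fold change -2.45). ETS factors, many of them ERK targets or substrates, split into 5 rises and 5 falls of 16 (median 0.00; without both replicates 3, 6 and 7 of 16, median 0.00). Etv4 rose from 34.1, 31.8 and 46.4 to 63.9, 68.2 and 79.5 CPM (log2 fold change 0.91). The epithelial factors Ehf and Elf3 fell, Ehf from 10.4, 9.43 and 8.02 to 0.219, 0.409 and 1.69 CPM (log2 fold change -3.52, SE 0.48, adjusted p = 2.2e-04). Elf3 fell from 19.9, 18.2 and 6.95 to 4.34, 4.87 and 4.97 CPM (log2 fold change -1.66). Of 12 Kruppel-like factors, 4 rose and 1 fell (median 0.13; without both replicates 3, 4 and 5 of 12, median -0.13). Klf2 rose from 0.426, 0.928 and 0.835 to 12.3, 9.45 and 8.23 CPM (log2 fold change 3.75, SE 0.27, adjusted p = 1.2e-06). Klf4 fell from 65.7, 63.8 and 46.1 to 23.7, 22.4 and 34.8 CPM (log2 fold change -1.12, SE 0.17, adjusted p = 4.7e-04). In the Fox, Sox, Gata, Tbx and Runx families, 10 of 39 rose and 4 fell (median 0.08; without both replicates 3, 12 and 10 of 39, median 0.04). Foxj1, the factor of motile cilia, stood at 3.23, 3.37 and 3.31 CPM in untransformed cells and had 1 count over all RasG12V libraries. Sox6 fell from 11.9, 10.8 and 13.8 to 1.49, 1.96 and 3.17 CPM (log2 fold change -2.45, SE 0.23, adjusted p = 1.3e-05). Foxa1, a pioneer factor of liver genes, rose from 9.2, 9.4 and 11.1 to 24, 24.6 and 20.4 CPM (log2 fold change 1.22, SE 0.11, adjusted p = 7.2e-06). Among other homeobox factors, 9 of 51 rose and 7 fell (median 0.16; without both replicates 3, 13 and 9 of 51, median 0.14). Hhex, needed for liver bud growth, fell from 55.8, 51.8 and 38.8 to 16, 15.7 and 22.9 CPM (log2 fold change -1.42). Of the Hox cluster genes 2 of 17 rose and 3 fell (median 0.05; without both replicates 3, 4 and 3 of 17, median 0.19). Of the nuclear receptors 5 of 32 rose and 6 fell (median -0.03; without both replicates 3, 7 and 9 of 32, median -0.1). The large Zfp family had 20 rises and 24 falls in 327 (median -0.03; without both replicates 3, 34 and 52 of 329, median -0.05). For chromatin regulators, 16 of 118 rose and 10 fell (median -0.02; without both replicates 3, 24 and 17 of 118, median -0.03). Besides Hmga2, its paralog Hmga1 rose from 33.7, 42.7 and 46.7 to 94.6, 92.6 and 84.6 CPM (log2 fold change 1.14, SE 0.12, adjusted p = 3.8e-05). Arid5a rose from 13, 12.9 and 14.5 to 30.4, 31.1 and 37.6 CPM (log2 fold change 1.3). The deacetylase gene Hdac7 fell from 130.1, 122 and 146 to 85, 82.7 and 80.4 CPM (log2 fold change -0.68).

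Genes of regulated secretion and synapses rose in 18 of 57 and fell in 4 (median 0.21; without both replicates 3, 23 and 12 of 58, median 0.21). The vesicle calcium sensor gene Syt7 rose from 2.95, 3.12 and 3.52 to 9.51, 10.8 and 12.8 CPM (log2 fold change 1.79, SE 0.16, adjusted p = 8.1e-06). Unc13a, a priming factor, rose from 0.923, 0.65 and 1.07 to 4.26, 4.34 and 7.3 CPM (log2 fold change 2.59). Ptprn, a protein of dense-core vesicles, rose from 0.284, 0.247 and 0.537 to 2.77, 2.29 and 5.31 CPM (log2 fold change 3.26). Ion channels went both ways, in 11 rises and 15 falls of 61 (median 0.11; without both replicates 3, 17 and 19 of 64, median 0.05). The potassium channel genes Kcnk2 and Kcnh2 rose, Kcnk2 from 2.45, 3.28 and 3.55 to 18.7, 18.7 and 12.9 CPM (log2 fold change 2.43, SE 0.17, adjusted p = 1.0e-06). Kcnh2 rose from 0.142, 0.0619 and 0.119 to 3.1, 2.9 and 2.2 CPM (log2 fold change 4.63). The chloride channel gene Ano1 fell from 150, 138 and 103 to 43.9, 39.6 and 50.8 CPM (log2 fold change -1.54). Eicosanoid genes rose in 7 of 21 and fell in 3 (median 0.04; without both replicates 3, 7 and 6 of 21, median 0.15). Ptgs2, the inducible cyclooxygenase, rose from 277, 309.9 and 189.8 to 617, 664 and 332 CPM (log2 fold change 1.06, SE 0.23, adjusted p = 0.00587), with RasG12V replicate 3 close to the untransformed range. Ptges, the prostaglandin E synthase downstream of it, rose from 0.0355, 0.155 and 0.418 to 2.95, 2.82 and 5.16 CPM (log2 fold change 4.1, SE 0.46, adjusted p = 4.8e-05). Ptgs1, the constitutive cyclooxygenase, fell from 3.52, 3.25 and 1.01 to 0.219, 0.164 and 0.814 CPM (log2 fold change -2.61). Purinergic and adenosine genes had 0 rises and 9 falls in 26 by edgeR (median -0.15; without both replicates 3, 4 and 14 of 28, median -0.29). At an unadjusted p under 0.05, 2 were higher and 12 lower. DESeq2 called 2 rises and 10 falls, and limma-voom 0 and 9. The nucleotide hydrolases Entpd5 and Entpd2 fell, Entpd5 from 91.2, 86.3 and 80 to 32.4, 34.7 and 52.2 CPM (log2 fold change -1.11, SE 0.15, adjusted p = 2.0e-04). Entpd2 fell from 3.16, 2.6 and 1.76 to 0.365, 0.123 and 0.995 CPM (log2 fold change -2.26).

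Few genes of the translation apparatus and of oxidative phosphorylation passed the test. Of 80 cytoplasmic ribosomal protein genes, 1 rose and 0 fell by edgeR (median 0.16; without both replicates 3, 17 and 2 of 80, median 0.19). At an unadjusted p under 0.05, 10 were higher and 1 lower, and 4 rose by DESeq2 and 1 by limma-voom, with 0 falls by both. Rps24 rose from 339, 355 and 356 to 406, 427 and 449.9 CPM (log2 fold change 0.29, SE 0.07, adjusted p = 0.0106). Nuclear genes for oxidative phosphorylation had 0 rises and 8 falls in 77 by edgeR (median -0.09; without both replicates 3, 0 and 20 of 77, median -0.14). At an unadjusted p under 0.05 it was 0 and 14, by DESeq2 0 and 9, and by limma-voom 0 and 8. Ndufv1, of complex I, fell from 208, 225 and 215 to 167, 168 and 159.7 CPM (log2 fold change -0.39). Of the 7 mitochondrial genes tested, 0 were called by edgeR, DESeq2 or limma-voom with all libraries, and 0 had an unadjusted edgeR p under 0.05. Without both replicates 3, 3 fell. mt-Cytb stood at 4586, 4720 and 4147 against 3796, 4030 and 5262 CPM. Serine, one-carbon and nucleotide synthesis genes rose in 5 of 50 and fell in 2 (median 0.08; without both replicates 3, 14 and 9 of 50, median 0.03). Glul, glutamine synthetase, fell from 527, 508 and 479.6 to 275, 263 and 338 CPM (log2 fold change -0.79, SE 0.09, adjusted p = 6.0e-05). Of lysosome and autophagy genes 7 of 69 rose and 9 fell (median 0.03; without both replicates 3, 12 and 18 of 70, median -0.07). Of solute carriers 23 of 185 rose and 34 fell (median -0.07; without both replicates 3, 36 and 64 of 187, median -0.14). Cilium and polycystin genes had 6 rises and 11 falls in 61 (median -0.04; without both replicates 3, 15 and 15 of 61, median -0.01), among which the polycystic kidney disease genes Pkd2 and Pkhd1 fell, Pkd2 from 89.8, 88.2 and 99.1 to 55.1, 59.2 and 60 CPM (log2 fold change -0.67). Pkhd1 fell from 27.4, 25.4 and 34 to 14.7, 15.7 and 13.3 CPM (log2 fold change -0.99). Imprinted genes rose in 8 and fell in 7 of 30 (median 0.05; without both replicates 3, 9 and 9 of 30, median 0.1). Magel2 fell from 7.95, 8.44 and 12.9 to 1.64, 1.84 and 3.32 CPM (log2 fold change -2.09, SE 0.32, adjusted p = 4.6e-04). Peg10 rose from 0, 0.0309 and 0.0895 to 0.51, 1.06 and 0.573 CPM (log2 fold change 3.93). Histone genes rose in 4 of 27 and fell in 1 (median 0.25; without both replicates 3, 3 and 6 of 28, median 0.07). Replication-dependent histone RNAs lack poly(A) tails. The labels give RNA depleted of ribosomal RNA and also name a TruSeq RNA kit. Whether the libraries kept RNA without poly(A) tails was not tested.

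**Figure D4:**
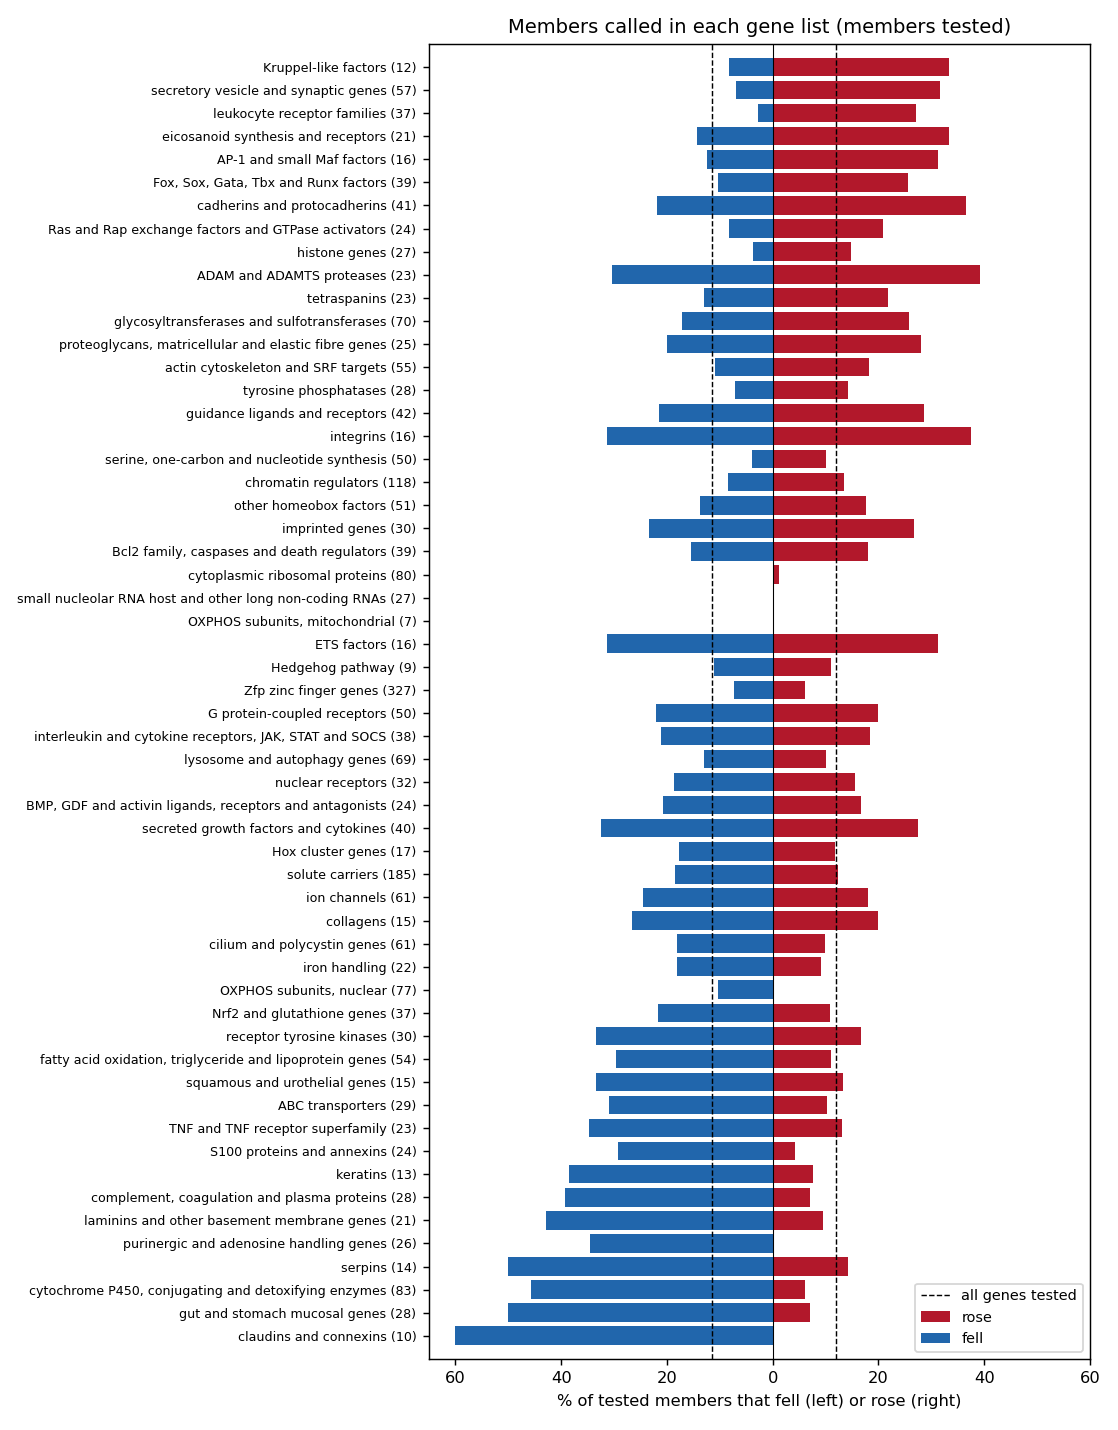
Share of the tested members of each of 56 gene lists that rose (right, red) or fell (left, blue), in %, ordered by the difference between both shares; the number of members tested stands in brackets, and dashed lines mark the shares among all 14283 genes tested (11.9% and 11.5%). Claudins and connexins, mucosal genes and detoxifying enzymes reach the furthest left of the net order, and Kruppel-like factors and secretory vesicle genes stand at the other end.

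Genes of the cleavage-stage embryo were detected in RasG12V cells. These genes, among them Zscan4 and Usp17l family members, are known for a burst of expression at the time when the mouse embryo activates its genome, and for transient expression in rare cultured embryonic stem cells. The list was assembled after their values had been seen, so it has no test of its own. Of 62 annotated members, 45 passed the filter on low counts, and most could pass only through groups in which they were expressed. Among these 45, 43 rose and 0 fell; Pramef8 and Nelfa were not called. The median log2 fold change was 4.33. Without both replicates 3, 43 rose as well. At an unadjusted p under 0.05, 43 were higher and 0 lower. DESeq2 called 42 rises and 0 falls, and limma-voom 43 and 0. The untransformed group held at most 3 counts in all for 19 of the 45 genes, whose fitted fold changes depend on the prior count. With these set at 3 counts over the group, the median log2 ratio of mean CPM was 3.79. Without both replicates 3, 32 of the 45 had at most 3 such counts, and the median ratio set in the same way was 4.08.

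Summed over 9 Zscan4 genes and pseudogenes, the untransformed libraries held 4, 9 and 23 counts (0.142, 0.278 and 0.686 CPM), and the RasG12V libraries 281, 279 and 168 counts (10.2, 11.4 and 5.06 CPM). The 5 Usp17l genes, which encode deubiquitinating enzymes, held 10, 21 and 24 counts against 326, 311 and 154. In both sums the groups did not overlap, and RasG12V replicate 3 was the lowest of its group. That library was also the lowest of its group for Hras, and a link between these levels was not tested. Zscan4d stood at 0.071, 0.0309 and 0.0895 CPM in the untransformed libraries and 2.01, 2.0 and 0.844 CPM in RasG12V (log2 fold change 4.56, SE 0.5, adjusted p = 4.2e-05). Zscan4f was at 0, 0.0309 and 0.119 CPM in the untransformed libraries and 1.79, 1.8 and 1.09 CPM in RasG12V (log2 fold change 4.76, SE 0.57, adjusted p = 7.4e-05). Zscan4c, with 2 counts over the untransformed group, stood at 0, 0 and 0.0596 against 0.693, 0.695 and 0.121 CPM. Usp17le was the most abundant of its family in each RasG12V library, at 0.249, 0.186 and 0.0895 CPM in the untransformed libraries and 4.56, 4.01 and 1.42 CPM in RasG12V (log2 fold change 4.24, SE 0.51, adjusted p = 8.7e-05). The zinc finger gene Zfp352 stood at 0.107, 0.155 and 0.209 CPM in the untransformed libraries and 2.55, 2.9 and 1.18 CPM in RasG12V (log2 fold change 3.75, SE 0.54, adjusted p = 3.0e-04). Tcstv3 stood at 0, 0.186 and 0.0298 CPM in the untransformed libraries and 2.3, 2.25 and 0.724 CPM in RasG12V (log2 fold change 4.47, SE 0.72, adjusted p = 7.2e-04). Tmem92 stood at 0.213, 0.0619 and 0.149 CPM in the untransformed libraries and 1.79, 1.6 and 0.693 CPM in RasG12V (log2 fold change 3.24, SE 0.5, adjusted p = 5.4e-04). Ubtfl1, Pramef6, Pramef25, Tcstv1 and Duxf3 had 0 counts in each untransformed library. In RasG12V they reached 1.17, 0.695 and 0.211 CPM for Ubtfl1, 0.583, 0.409 and 0.151 CPM for Pramef6 and 0.365, 0.327 and 0.0301 CPM for Duxf3, the gene of the factor DUX, which activates this set. In RasG12V replicate 3 Duxf3 and Tcstv1 had only 1 count each. Levels of a few CPM in bulk RNA do not separate low expression in all cells from high expression in few cells. Copies of these families are nearly alike, and a read with more than 1 placement was left out of the counts, which makes the split between copies uncertain.

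**Figure D5:**
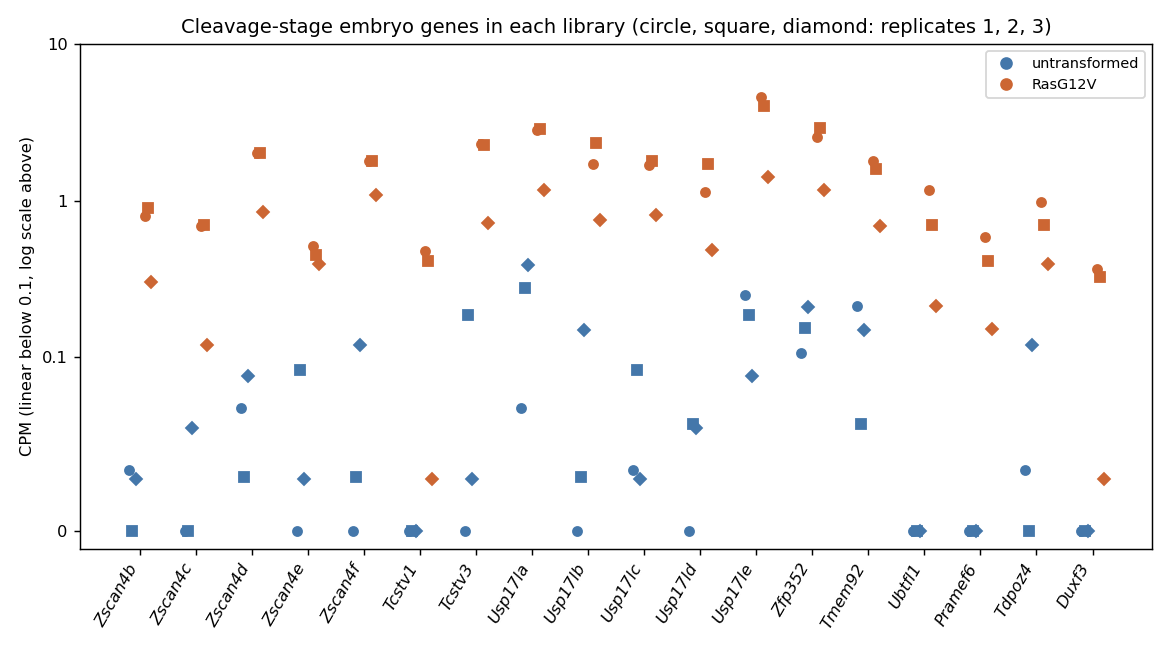
Level of 18 cleavage-stage genes in each library (y axis, CPM, linear below 0.1 and logarithmic above; untransformed in blue, RasG12V in orange; circle, square and diamond for replicates 1, 2 and 3). RasG12V replicates 1 and 2 lie above every untransformed library for each gene, and RasG12V replicate 3 lies below them.

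Of 28 annotated pluripotency factors, 10 were tested, of which 2 rose and 3 fell (median 0.05; without both replicates 3, 4 and 4 of 10, median 0.16). Klf4 fell, with the values given above. Tfcp2l1 fell from 14.1, 10.6 and 11.9 to 4.41, 4.05 and 4.13 CPM (log2 fold change -1.54, SE 0.13, adjusted p = 4.5e-06). Mycn fell from 2.98, 2.1 and 3.67 to 0.328, 0.45 and 0.392 CPM (log2 fold change -2.9). Klf2 and Tbx3 rose. Of 46 annotated germ cell genes 7 were tested, of which 2 rose and 0 fell by edgeR (median -0.11; without both replicates 3, 2 and 1 of 7, median 0.05). At an unadjusted p under 0.05, 3 were higher and 1 lower, and DESeq2 and limma-voom also called 2 rises and 0 falls. Rhox5 went from 0.142, 0.217 and 0.209 to 1.57, 1.23 and 1.66 CPM (log2 fold change 2.94, SE 0.29, adjusted p = 1.8e-05). Tex14 went from 0, 0.0928 and 0.209 to 0.365, 0.532 and 0.362 CPM (log2 fold change 1.94). Both lists were also added after values had been seen.

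The promoters of both kinds of rising gene are shown because a Ras-responsive motif can be looked for in them. AP-1, the dimer of FOS and JUN proteins that acts at the end of the ERK pathway, binds TGAGTCA, or TGACTCA on the other strand. The wider pattern TGANTCA, which covers both strands, was searched in the 250 bases before each gene start in the RefSeq table of GRCm38.p6. For 3 genes with large rises, Mmp10 (0.781, 1.24 and 0.865 against 94.8, 85.2 and 163 CPM) and Mmp13 (18.3, 17.8 and 17.6 against 286, 291 and 1016 CPM), both matrix metalloproteinases, and Serpinb2, the 250 bases are given with the match in capitals. They are followed by those of Zscan4c and Zscan4d. These promoters were picked by hand and not by a rule, and each holds a match. They are examples, and how common the motif is cannot be read from them.
Mmp10: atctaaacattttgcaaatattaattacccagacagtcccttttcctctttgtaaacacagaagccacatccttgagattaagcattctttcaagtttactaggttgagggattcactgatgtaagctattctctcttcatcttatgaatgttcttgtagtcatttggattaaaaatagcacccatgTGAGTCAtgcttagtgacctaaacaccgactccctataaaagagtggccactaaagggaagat
Mmp13: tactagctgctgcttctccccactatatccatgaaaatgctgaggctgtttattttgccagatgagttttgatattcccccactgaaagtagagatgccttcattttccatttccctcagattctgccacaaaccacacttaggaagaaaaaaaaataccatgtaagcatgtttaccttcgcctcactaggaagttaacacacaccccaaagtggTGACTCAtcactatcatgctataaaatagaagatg
Serpinb2: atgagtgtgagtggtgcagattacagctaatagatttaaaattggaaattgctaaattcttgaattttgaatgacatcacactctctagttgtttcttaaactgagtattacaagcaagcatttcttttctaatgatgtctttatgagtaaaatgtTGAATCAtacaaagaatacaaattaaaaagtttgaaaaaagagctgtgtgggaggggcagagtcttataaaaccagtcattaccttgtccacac
Zscan4c: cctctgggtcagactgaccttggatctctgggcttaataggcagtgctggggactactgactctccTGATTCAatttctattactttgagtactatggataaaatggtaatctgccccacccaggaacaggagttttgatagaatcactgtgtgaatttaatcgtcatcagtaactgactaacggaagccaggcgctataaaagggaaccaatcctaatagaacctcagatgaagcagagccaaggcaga
Zscan4d: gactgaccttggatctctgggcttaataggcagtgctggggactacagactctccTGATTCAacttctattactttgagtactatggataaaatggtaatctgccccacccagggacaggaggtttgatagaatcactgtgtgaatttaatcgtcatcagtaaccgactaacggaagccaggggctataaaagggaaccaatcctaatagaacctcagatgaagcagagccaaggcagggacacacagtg

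These windows lie at chr9:7502092-7502341 for Mmp10, chr9:7272264-7272513 for Mmp13 and chr1:107511173-107511422 for Serpinb2, all on the plus strand. Those of Zscan4c (chr7:11005495-11005744, plus strand) and Zscan4d (chr7:11166149-11166398, minus strand) were identical at 97.5% of 238 aligned bases. The match was TGAGTCA in Mmp10, 63 bases before the gene start, TGACTCA in Mmp13, 35 bases before, and TGAATCA in Serpinb2, 94 bases before. In Zscan4c and Zscan4d it was TGATTCA, 184 and 195 bases before. Only Mmp10 and Mmp13 thus held the AP-1 consensus itself, while Serpinb2, Zscan4c and Zscan4d matched the wider pattern with A or T at its centre. Over all 27025 genes with a window, 7.82% held a match, and over the 9957 tested genes found among them 5.86% did. The share was 9.16% of 1223 rising genes, 8.22% of 1229 falling genes and 4.93% of 7505 genes not called. Among genes that changed by at least 2 on the log2 scale it was 18.1% of 177 rises and 13% of 192 falls. For TGAGTCA or TGACTCA alone, the share was 5.16% over all windows, 7.03% of rising, 5.94% of falling and 3.58% of uncalled genes, and 12.4% and 8.33% of these larger rises and falls. Nearly alike copies, such as Zscan4c and Zscan4d, count as separate genes in these shares. These shares were not tested, a match is not a binding site, and the windows hold no distal enhancer.

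Position along the chromosomes showed several clusters. Among tested protein-coding genes in genome order, 31 runs of at least 4 neighbours changed in the same direction, 15 upward and 16 downward, with 143 genes in all. The Zscan4 cluster (chr7:10900740-11614112) gave the longest, with 8 members that rose. The 4 of them with more than 3 counts over the untransformed group, Zscan4d, Zscan4e, Zscan4f and Zscan4-ps3, rose by 3.28 to 4.76 on the log2 scale. The 7 protocadherin beta genes from Pcdhb14 to Pcdhb20 rose by 0.78 to 1.30. Downward runs included 6 conjugating enzymes of the Ugt2b and Sult1 families (chr5:86889767-87569027); Ugt2b5 among them had 2 counts over the RasG12V group, and the other 5 had log2 fold changes between -5.94 (Ugt2b35) and -1.13. Further downward runs held 3 Ugt1a genes with Mroh2a (chr1:88095062-88262289, log2 fold changes between -3.70 and -2.34) and the keratins Krt80, Krt7, Krt79, Krt8 and Krt18 (chr15:101347444-102032027, between -1.24 and -0.38). Other upward runs held Tdpoz genes on chromosome 3 and Pramef genes on chromosome 4, both of the cleavage-stage list. Members of the same family within a run are similar in sequence. Other runs held genes of different families, such as Timeless, Apon, Stat2 and Pan2, which fell. How many runs an unordered genome would give was not tested.

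Among non-coding genes, 90 of 912 long non-coding genes rose (9.87%) and 73 fell (8%), against 12.9% in each direction for 11963 protein-coding genes. Of 1035 pseudogenes, 53 rose and 15 fell. D5Ertd615e rose from 0.746, 0.557 and 0.209 to 2.11, 2.86 and 2.77 CPM (log2 fold change 2.37, SE 0.35, adjusted p = 3.6e-04). Brip1os, an antisense gene of Brip1, fell from 206, 216 and 186 to 165, 172 and 120 CPM (log2 fold change -0.41, SE 0.12, adjusted p = 0.0214). Lppos fell from 2.81, 2.75 and 2.89 to 1.75, 1.55 and 1.93 CPM (log2 fold change -0.69). Among 27 tested small nucleolar RNA host genes and other well-known long non-coding RNAs, 0 were called by edgeR, DESeq2 or limma-voom with all libraries, and 2 were higher and 0 lower at an unadjusted edgeR p under 0.05. Of these genes, 1 rose and 1 fell without both replicates 3. Neat1 stood at 1797, 1546 and 1563 against 1034, 1093 and 2220 CPM, with RasG12V replicate 3 above all others.

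For some genes the call depended on the third libraries. Pklr, liver and red cell pyruvate kinase, stood at 80.6, 74.1 and 69.2 CPM in the untransformed libraries and 26.7, 28.7 and 79.9 CPM in RasG12V (log2 fold change -0.72, SE 0.32, adjusted p = 0.132); RasG12V replicate 3 lay within the untransformed range (log2 fold change without them -1.5, adjusted p = 1.2e-08). The same held for Sqor, a sulfide oxidoreductase (60.6, 61.4 and 49.7 against 22.6, 23.8 and 55 CPM), and Rab3d, a GTPase of secretory granules (36.4, 33 and 42.8 against 14.3, 13.6 and 35.9 CPM). Anxa10 stood at 62.4, 63.4 and 5.93 against 25.2, 23.8 and 31.8 CPM, with untransformed replicate 3 below every RasG12V library, and the alarmin gene Il33 at 644, 679.9 and 354 against 385, 370.2 and 472 CPM. Among genes called as rises only without these libraries, Ifit2, an interferon-induced gene, stood at 18.8, 19.5 and 26.5 against 36.3, 36.2 and 17.1 CPM, with RasG12V replicate 3 below the untransformed libraries. Amotl1, a partner of the YAP protein (95.7, 91.1 and 154 against 164, 169 and 141 CPM), Arid5b (41.6, 39.9 and 74.7 against 67.5, 73.2 and 84.8 CPM) and Eya1 (15.1, 15 and 30.5 against 31.6, 30.9 and 23.1 CPM) had an untransformed replicate 3 near the RasG12V level. With all libraries none of these 9 passed the threshold, with adjusted p between 0.0514 and 0.405.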

How the data were processed

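RNA from BMEL cells was sequenced in 12 libraries of 4 groups, and 6 libraries of 2 groups are described. The deposited values are counts of reads per Ensembl gene that the authors made, per the submitters' processing notes, with FastQC and STAR 2.6.0a on GRCm38.p6; which annotation release they used is not given in the sources used here. RNA was, per the labels, depleted of ribosomal RNA and a TruSeq RNA kit was used. The reverse-strand counts were taken, since they held 24.7 to 28.6 times the forward-strand counts in the 6 libraries. Rows that name no gene (unmapped, 2.10% to 3.34% of reads; several placements, 23.0% to 25.9%; no gene, 5.01% to 5.85%; ambiguous, 0.979% to 1.02%) were left out of library sizes and tests. A count of 3, the floor used for low values, equals 0.0895 to 0.123 CPM.

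Genes kept by filterByExpr were fitted with edgeR 4.0.16 in R 4.3.3 (TMM scaling, robust quasi-likelihood fit, quasi-likelihood F test) over all 12 libraries, which share an estimate of the spread. P-values were adjusted by Benjamini-Hochberg over 14283 genes with a threshold of 0.05, and every gene said to rise or fall passed it. The SE printed is approximate: the size of the log2 fold change over the square root of F. Alternatives were DESeq2 1.42.0, voom in limma 3.58.1, other scalings, filters and columns, a replicate block, only the 6 libraries, and leaving out libraries. Symbols came from GENCODE M21 (54079 of 54146 identifiers matched), and promoters from RefSeq.

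The comparison, its lists and the rule for naming genes were chosen with earlier results of these data known. The rule took Hras, the 8 genes per direction with the largest difference in CPM and no overlap, and the 8 with the smallest adjusted p among changes under 1 on the log2 scale at 5 CPM or more. It also took up to 6 non-coding genes at 2 CPM or more, up to 4 called members of each of 57 lists by adjusted p, and up to 6 genes per direction called only without both replicates 3. Genes already described in earlier results were passed over, and some genes and 1 list that the rule takes are not reported here. Chosen after values were seen were 3 further lists (cleavage-stage embryo, pluripotency, germ cell), Mmp10, Mmp13, the promoters shown and the marker genes printed.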

Additional observations from a re-analysis of the deposited data

Results flagged for a closer look

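The Cdk8 and Cdk19 knockout libraries, which also carry RasG12V and are not used in the comparison, held Zscan4 RNA above the untransformed level. The summed level of the 9 Zscan4 genes averaged 10.7 CPM over the 3 Cdk8 knockout libraries (12.4, 10.0 and 9.83 CPM) and 17.9 CPM over the 3 Cdk19 knockout libraries (24.0, 14.2 and 15.5 CPM). In the untransformed libraries it was 0.142, 0.278 and 0.686 CPM, and in RasG12V libraries 10.2, 11.4 and 5.06 CPM. The signal was thus present in each of the 9 libraries with RasG12V. Differences among these 3 groups were not tested.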

How the results depend on the processing

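The count of called genes depended most on which libraries entered the fit. With only the 6 libraries of these groups, 1574 of 13756 genes were called, 813 rising and 761 falling, and 1568 of these were among the 3340 called with 12 libraries. Without replicate 3 of both groups, 5799 were called, 2754 rising and 3045 falling. Leaving out 1 library at a time gave 2359 to 4808 calls (1188 to 2463 rises and 1171 to 2345 falls). The fewest came without untransformed replicate 1 and the most without RasG12V replicate 3. DESeq2, limma-voom, both other scalings, no filter, a filter of 1 CPM and the unstranded column gave 2993 to 3722. In these alternatives, none of the shared calls had the opposite direction. Of 292 genes that the naming rule takes, 217 kept their call in all 16 alternatives, 59 changed it in at least 1, and 16 kept it in those that gave them a value. A cause for these shifts was not tested.

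With the replicate block 3685 genes were called (1865 rises, 1820 falls). Deviations of same-numbered libraries from their group means correlated at -0.0334, 0.179 and 0.164 for replicates 1, 2 and 3. Untransformed replicate 2 correlated best with RasG12V replicate 1 (0.222), so the numbers were not taken as pairs.

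Genes with at most 3 counts in a group, among them 19 of the 45 tested cleavage-stage genes, have no interpretable fold at this depth.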
